A study of Mus musculus with 6 samples.

Results

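The genes described here form the antioxidant system built around NRF2: the transcription factor and its inhibitor, enzymes that make and use glutathione and thioredoxin, superoxide dismutases, catalase, and the pentose phosphate enzymes that supply NADPH. The list holds 38 genes, given by name and drawn up with earlier results of these data known, out of 55385 mouse genes in the count table, and all 38 were measured well enough to be tested. They were read in bulk RNA-seq of PDVC57, an established mouse line of squamous cell carcinoma. The labels put 3 libraries in a Sox2 KO group, in which the gene of the stem cell transcription factor Sox2 is knocked out, and 3 in a Sox2 overexpression group, in which extra Sox2 is supplied. The design text calls the cells Sox2 low and Sox2 high, says that they came from tumours grown as grafts, and asks what Sox2 switches on in tumour stem cells that could affect neutrophils. Neither group is unmodified PDVC57, so each fold change below compares overexpression with knockout. No age, host strain, clone number or means of supplying Sox2 was given in the sources used here. Nothing there says whether replicates were separate grafts or cultures, so the p-values measure the spread between these libraries, which may be technical.

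NRF2, encoded by Nfe2l2, is held low by KEAP1, which targets it for degradation. Oxidants and electrophiles inactivate KEAP1, and NRF2 then binds antioxidant response elements near genes for glutathione synthesis, thioredoxin recycling and detoxification. Control acts mainly on the protein, so the mRNA of Nfe2l2 does not report the activity of NRF2. In squamous epithelium this system is known for protecting keratinocytes from oxidative damage.

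The libraries held 31247976 to 38543221 counts over mouse genes. Sox2 itself had 25 to 49 counts in the knockout libraries and 2566 to 4095 in the overexpression libraries, in the direction the labels give. The keratinocyte genes Krt5 and Krt14 were present in all libraries, at 218 CPM (counts relative to the TMM-scaled library size) or more for Krt5 and 347 CPM or more for Krt14. Of 32 epithelial genes, 22 were higher with overexpression, and their summed level was 5759 to 9727 CPM with knockout and 17160 to 22500 CPM with overexpression. Fibroblast, white blood cell and endothelial markers differed as well. All 10 fibroblast markers were lower with overexpression, none of them at 0, with a summed level of 57410 CPM, 85750 CPM and 80290 CPM in knockout replicates 1, 2 and 3 and of 268 to 421 CPM in the overexpression libraries. Summed white blood cell markers lay at 26.5 to 136 CPM with knockout and 8.32 to 24.0 CPM with overexpression, and endothelial markers at 34.5 to 111 CPM and 13.2 to 19.9 CPM, in both cases highest in knockout replicate 3. Of the white blood cell markers 6 of 9 tested were lower and none higher, while Csf1r and Ly6g, which did not pass, had mean levels of 6.42 and 2.15 CPM with knockout and 11.7 and 4.74 CPM with overexpression. Of the endothelial markers 6 of 7 tested were lower. Adipocyte markers, with Lep at 0 throughout, summed to at most 1.23 CPM in any library. In such bulk samples, fewer cells of a type and less RNA per cell cannot be told apart. Which cells made the marker RNA, the carcinoma cells included, was not tested.

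The antioxidant genes split into several that changed 5-fold or more in one direction or the other and a larger number that moved little. With overexpression, the transferases Gsto1 and Gsta4, catalase (Cat) and the peroxidase Gpx2 rose, while the secreted enzymes Gpx3 and Sod3, the mu-class transferases Gstm1, Gstm2 and Gstm5, and Gstt1 and Mgst1 fell. In the edgeR test, 13 of the 38 genes (34.2%) were higher at an adjusted p under 0.05, where 13.6% of all 18504 tested genes were, and 9 (23.7%) were lower, where 18.0% of all genes were. In either direction these are 22 genes (57.9%), against 31.6% of all genes. The median log2 fold change, written as log2 change below, was 0.28 over the 38 genes and -0.016 over all genes. The groups did not overlap for 26 of the 38 genes (68.4%), as for 50.9% of all genes.

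The counts depended on single libraries and on the scaling. Without knockout replicate 3, 7 of the 38 genes were higher (8.45% of all genes were), and the 6 lost were Txn1, Prdx1, Gpx4, Mgst3, Sod1 and Tkt. A setting called the epithelial scaling below scaled libraries so that the 32 epithelial genes, taken by their median ratio, were level. It moved the median log2 change of all genes by -1.15, to -1.16. With it 4 of the 38 genes were higher and 24 lower, where 1.92% and 71.6% of all genes were. Those 24 were the 9 that fell with TMM and 15 of the 16 that had not passed the threshold, all but Mgst2. Gpx2, Gsta4, Gsto1 and Cat were higher past the threshold in all 13 alternatives that were run, this scaling included, and Gpx3, Sod3, Gstm1, Gstm2, Gstm5, Gstt1 and Mgst1 were lower in all 13. Gclm, G6pdx and Taldo1 were higher in the other 12 alternatives and lay at or below -0.098 under the epithelial scaling. All 38 genes lay on the same side of the all-gene median under this scaling as with TMM.

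**Figure D1:**
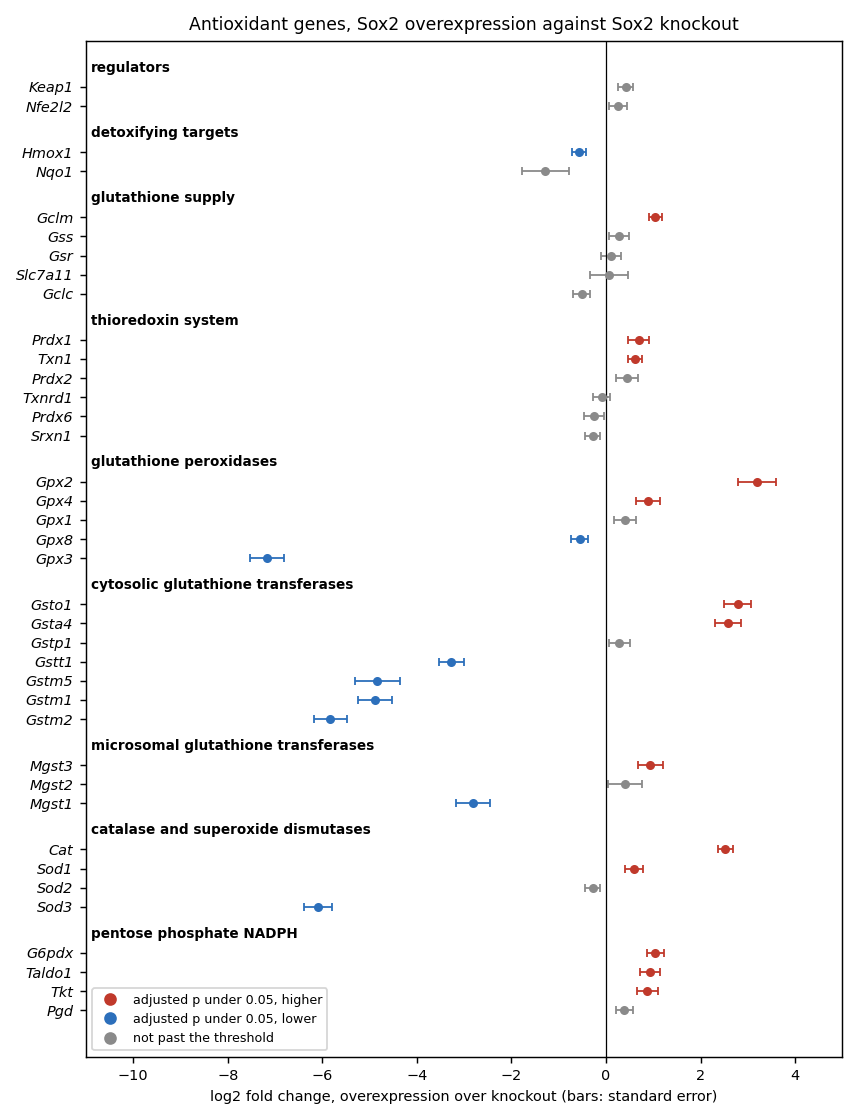
Log2 fold change of the 38 genes, overexpression over knockout, grouped by role, with the standard error as a horizontal bar (3 libraries a group). Red points rose and blue points fell at an adjusted p under 0.05, and the blue points reach from -0.56 for Gpx8 to -7.16 for Gpx3. Of the red points, those of Gclm, Txn1, Prdx1, Gpx4, Mgst3, Sod1, G6pdx, Taldo1 and Tkt lie below 0 under the epithelial scaling. All of these lie above the all-gene median of -1.16 there.

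Antioxidant response elements were looked for in the promoters, since they are the sites through which NRF2 is known to act. RefSeq promoter windows (GRCm38.p6, 250 bases before to 50 bases after a gene's start) were at hand for 32 of the 38 genes, in 40 windows. The element's core, TGACNNNGC on either strand, was present in 10 of the 40 windows (25%) and in 12.4% of the 32851 windows of all genes. The AP-1 site TGACTCA, whose letters can overlap the core, was present in 5 of the 40 windows (12.5%) and in 5.20% of all windows. The core was found in genes that were higher (Gclm, Prdx1, Sod1, G6pdx), lower (Gstm5, Mgst1) and not past the threshold (Nfe2l2, Srxn1, Txnrd1, Pgd), so its presence did not go with 1 direction. The following 41-base stretches, 5′ to 3′ on the gene's strand, set cores from 4 genes that were higher, 2 that were lower and 1 that did not pass the threshold side by side. Capitals mark the core, which reads as its reverse complement in all but Gstm5.
Gclm: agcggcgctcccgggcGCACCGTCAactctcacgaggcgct
Prdx1: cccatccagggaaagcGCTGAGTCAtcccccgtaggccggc
Sod1: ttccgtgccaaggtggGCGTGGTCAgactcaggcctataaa
G6pdx: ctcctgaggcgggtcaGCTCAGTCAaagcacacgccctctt
Gstm5: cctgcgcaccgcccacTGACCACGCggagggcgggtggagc
Mgst1: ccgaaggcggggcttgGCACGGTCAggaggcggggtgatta
Txnrd1: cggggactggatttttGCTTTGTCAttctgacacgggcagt

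These stretches lie at chr3:122245407-122245447 (Gclm, plus strand), chr4:116685450-116685490 (Prdx1, plus), chr16:90220690-90220730 (Sod1, plus), chrX:74428913-74428953 (G6pdx, minus), chr3:107895796-107895836 (Gstm5, plus), chr6:138140455-138140495 (Mgst1, plus) and chr10:82859098-82859138 (Txnrd1, plus). The core begins 134 bases before the start of Gclm, 133 before that of Prdx1, 56 before those of Sod1 and Mgst1, 57 before that of G6pdx, 42 before that of Gstm5 and 92 before a start of Txnrd1. In Prdx1 the core overlaps an AP-1 site. A match describes these letters only and does not show that a factor binds there.

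The regulators did not pass the threshold with TMM. Both passed as lower under the epithelial scaling, as 71.6% of all genes did, at log2 changes above the all-gene median of -1.16 there. Nfe2l2 (chromosome 2, 75675513 to 75704641, GRCm38) was at 157, 166 and 132 CPM in knockout replicates 1 to 3 and at 181, 139 and 222 CPM in overexpression replicates 1 to 3. The groups overlapped, and the log2 change of 0.25 (-0.89 under the epithelial scaling, adjusted p = 0.00449) had an adjusted p of 0.359. Keap1, which encodes the inhibitor, had 79.2 ± 3.34 CPM with knockout and 106 ± 18.5 CPM with overexpression (± SD, n = 3 per group), and here the groups did not overlap. Its log2 change of 0.42 (-0.74 under the epithelial scaling, adjusted p = 0.0196) missed the threshold with an adjusted p of 0.0776.

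Among detoxifying targets of NRF2, Nqo1 was low in all libraries and Hmox1 was lower with overexpression. This direction was not shared by all genes of the system. Gpx2, another known target, rose (log2 change 3.20), as did Gclm for glutathione synthesis (1.04, but -0.11 under the epithelial scaling). Gclc and Txnrd1, at -0.51 and -0.092, did not pass the threshold with TMM. Nqo1 encodes a quinone reductase whose mRNA is often used as a readout of NRF2. It had 0.44, 0.53 and 1.04 CPM with knockout and 0.21, 0.30 and 0.30 CPM with overexpression, which is at most 12 counts in an overexpression library. It was therefore scarcely detected in any library, and its log2 change of -1.28 did not pass the threshold (adjusted p = 0.0831), but did under the epithelial scaling (-2.51, adjusted p = 0.00239). Hmox1, the inducible haem oxygenase, had 38.8, 42.9 and 39.2 CPM with knockout and 24.7, 30.4 and 26.1 CPM with overexpression. The groups did not overlap, and Hmox1 fell by 0.57 on the log2 scale (SE 0.15, adjusted p = 0.0189). That call was lost in 5 of the 6 fits that left out 1 library, all but the one without overexpression replicate 2, with adjusted p-values of up to 0.0877.

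Among 5 genes for glutathione supply, 1 rose (20%), where 13.6% of all genes did. Glutathione is made by glutamate-cysteine ligase, a dimer of the catalytic subunit Gclc and the modifier subunit Gclm, and by the synthetase Gss. Gclm (chromosome 3, 122245557 to 122270732) had 29.2, 26.6 and 26.8 CPM with knockout and 54.5, 56.2 and 59.5 CPM with overexpression. The libraries of each group lay close together and the groups far apart, with a log2 change of 1.04 (SE 0.14, adjusted p = 0.000512), which was -0.11 under the epithelial scaling. Its exons overlap those of Gm17494 on the other strand.

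The catalytic subunit had a log2 change of the opposite sign, which did not pass the threshold with TMM. Gclc had 21.0, 20.3 and 27.7 CPM with knockout and 17.0, 14.2 and 17.1 CPM with overexpression. Every overexpression library lay below every knockout library, and the log2 change of -0.51 had an adjusted p of 0.0648 (-1.70 under the epithelial scaling, adjusted p = 0.00022). Gss, the glutathione reductase Gsr, which regenerates glutathione, and Slc7a11, the cystine importer, overlapped between the groups, with log2 changes of 0.27, 0.098 and 0.063 and adjusted p-values of 0.354, 0.752 and 0.923. Under the epithelial scaling these 3 were at -0.86, -1.06 and -1.003 and passed as lower, as 71.6% of all genes did. All 3 values lay above the all-gene median of -1.16 there. Slc7a11 was the most variable, at 5.95 CPM in knockout replicate 3 and 15.2 CPM or more in the other knockout libraries.

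In the thioredoxin system, the small redox protein itself and 1 peroxiredoxin were higher and the recycling enzymes were not. Txn1 (thioredoxin) had 188, 203 and 183 CPM with knockout and 290, 323 and 261 CPM with overexpression. The groups did not overlap, and Txn1 was higher by 0.61 on the log2 scale (adjusted p = 0.0147; -0.53 under the epithelial scaling), a call lost without knockout replicate 1 or 3. Txnrd1, the NADPH-dependent reductase that recharges thioredoxin, had 182, 160 and 185 CPM with knockout and 189, 177 and 129 CPM with overexpression, which overlap, and a log2 change of -0.092 (adjusted p = 0.720; -1.23 under the epithelial scaling, adjusted p = 0.00149). Srxn1, which repairs overoxidized peroxiredoxins, had a log2 change of -0.28 (adjusted p = 0.195; -1.41 under the epithelial scaling, adjusted p = 0.000184).

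Peroxiredoxins reduce peroxides with electrons from thioredoxin, except Prdx6, which uses glutathione. Prdx1 had 298, 323 and 235 CPM with knockout and 393, 604 and 381 CPM with overexpression. The groups were separate, with replicate 2 far above the other overexpression libraries, and Prdx1 was higher by 0.69 on the log2 scale (adjusted p = 0.0453; -0.43 under the epithelial scaling). This call was lost without any 1 knockout library or without overexpression replicate 2. Prdx2 and Prdx6 overlapped between groups, with log2 changes of 0.44 (adjusted p = 0.175; -0.69 under the epithelial scaling) and -0.26 (adjusted p = 0.387; -1.42 under the epithelial scaling). Prdx6 passed the threshold as lower when overexpression replicate 2 was left out. Of the transcript sequence of Prdx1, 15.4% (as 31-base words) is also found in other genes such as Gm21399, and its counts are uncertain to that extent.

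Overexpression replicate 2 stood high for many of these genes. It had the highest overexpression value for 27 of the 38 genes and for 10 of the 13 that rose, where it did so for 44.9% of all tested genes. No call among Gpx2, Gsta4, Gsto1, Cat, Gclm, G6pdx and Taldo1 was lost without it.

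The glutathione peroxidases held the sharpest contrast. These enzymes reduce peroxides with glutathione. Gpx3 (chromosome 11, 54902453 to 54910377), the secreted plasma form, had 478, 1045 and 654 CPM with knockout and 4.52, 4.84 and 5.79 CPM with overexpression. Knockout levels varied among replicates, yet each was far above every overexpression library, and Gpx3 fell 143-fold (log2 change -7.16, SE 0.36, adjusted p = 2.49e-06). Gpx2 (chromosome 12, 76792333 to 76795554), an enzyme of gut and other epithelia and a known NRF2 target, went the other way, from 0.32, 0.69 and 0.41 CPM to 3.17, 4.97 and 4.96 CPM. All values were low, the groups did not overlap, and Gpx2 rose 9.17-fold (log2 change 3.20, SE 0.41, adjusted p = 0.000458).

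The other peroxidases changed less. Gpx4, which reduces lipid peroxides in membranes and restrains ferroptosis, had 138, 157 and 138 CPM with knockout and 198, 387 and 220 CPM with overexpression, a log2 change of 0.90 (adjusted p = 0.0266; -0.24 under the epithelial scaling). All overexpression libraries were above all knockout libraries, but the call was lost without any 1 knockout library, and 38.9% of its transcript sequence is shared with copies such as Gpx4-ps2. Gpx1, the abundant cytosolic form, overlapped between groups (log2 change 0.40, adjusted p = 0.212; -0.74 under the epithelial scaling). Gpx8, a membrane protein of the endoplasmic reticulum, fell from 62.2 ± 8.80 to 42.3 ± 6.71 CPM (± SD, n = 3 per group), with a log2 change of -0.56 (adjusted p = 0.0379). That call was lost in all leave-one-out fits but the one without overexpression replicate 2, and in the DESeq2 test.

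**Figure D2:**
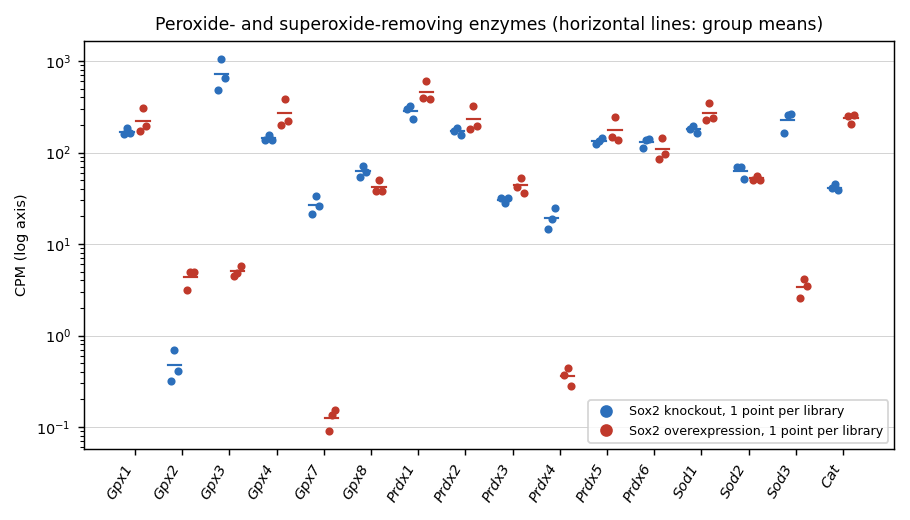
CPM per library (log axis) of the glutathione peroxidases, peroxiredoxins, superoxide dismutases and catalase, with replicates 1 to 3 from left to right and horizontal lines at the group means. Gpx7, Prdx3, Prdx4 and Prdx5 belong to the wider pathway list; Gpx3, Gpx7, Prdx4 and Sod3 drop far below their knockout levels, Cat and Gpx2 climb, and the other genes differ less.

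Of the 7 cytosolic glutathione transferases, which attach glutathione to electrophiles, 2 rose and 4 fell, where 13.6% and 18.0% of all genes did. Gsto1 (chromosome 19, 47854970 to 47864790), an omega-class enzyme with a thiol transferase activity, had 301, 284 and 195 CPM with knockout and 2314, 1845 and 1208 CPM with overexpression. Every library with overexpression stood far above those with knockout, and Gsto1 rose 6.88-fold (log2 change 2.78, SE 0.29, adjusted p = 0.000144). Gsta4 (chromosome 9, 78182774 to 78209349), an alpha-class enzyme that clears the lipid peroxidation product 4-hydroxynonenal, had 47.3, 21.6 and 37.6 CPM with knockout and 183, 236 and 220 CPM with overexpression. Its groups were also well apart, with a rise of 5.99-fold (log2 change 2.58, SE 0.28, adjusted p = 0.000186).

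The 3 mu-class genes among the 38 belong to a cluster on chromosome 3, and all 3 fell. Of the other mu-class genes there, Gstm3, Gstm6 and Gstm7 had too few counts to be tested. Gstm1 (108012255 to 108017973) had 20.8, 28.4 and 38.2 CPM with knockout and 0.58, 1.29 and 1.09 CPM with overexpression, and was 29.6-fold lower (adjusted p = 1.73e-05). Gstm2 (107981702 to 107986453) had 23.0, 44.0 and 37.4 CPM and then 0.79, 0.61 and 0.43 CPM, and was 57.1-fold lower (adjusted p = 5.93e-06). Gstm5 (107895821 to 107898686), at 3.90, 7.44 and 7.92 CPM and then 0.21, 0.34 and 0.13 CPM, was 28.6-fold lower (adjusted p = 0.000114), and its exons overlap those of 4933431E20Rik on the other strand. None of these groups overlapped. Gstm4, a neighbour outside the 38 genes that is named after its values were seen, had 55, 101 and 132 counts with knockout and 0 in each overexpression library, so that it was at least 28.1-fold lower against a floor of 3 counts per library. Parts of these transcripts are alike, with 28.8% of the sequence of Gstm1 and 12.2% of that of Gstm2 shared with other genes, so reads could have been divided among family members.

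Gstt1, a theta-class enzyme, fell as well, from 25.6, 30.5 and 25.7 CPM to 2.41, 3.96 and 2.13 CPM. The groups did not overlap and the change was 9.65-fold (log2 change -3.27, SE 0.27, adjusted p = 3.41e-05). Gstp1, the pi-class enzyme common in carcinomas, had 116 ± 7.76 CPM with knockout and 141 ± 45.3 CPM with overexpression (± SD, n = 3 per group) and overlapped between groups (log2 change 0.28, adjusted p = 0.365; -0.86 under the epithelial scaling), with 38.5% of its sequence shared with Gstp2 and other copies. The summed level of the 7 transferases was 451 to 541 CPM in the knockout libraries and 1557 to 2607 CPM in the overexpression libraries. Without Gsto1 the sums were 235 to 257 CPM and 293 to 434 CPM, which do not overlap either.

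Microsomal transferases are membrane enzymes unrelated in sequence to the cytosolic ones. Mgst1 had 36.7, 58.8 and 49.1 CPM with knockout and 10.7, 6.02 and 3.97 CPM with overexpression. The groups did not overlap, and Mgst1 fell 6.99-fold (log2 change -2.81, SE 0.36, adjusted p = 0.000487). Mgst3 had 27.4, 26.7 and 20.3 CPM with knockout and 33.5, 67.5 and 41.2 CPM with overexpression, a log2 change of 0.94 (adjusted p = 0.0270; -0.19 under the epithelial scaling), and lost the call without knockout replicate 2 or 3. Mgst2 was low and overlapped between groups (log2 change 0.41, adjusted p = 0.421; -0.81 under the epithelial scaling).

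**Figure D3:**
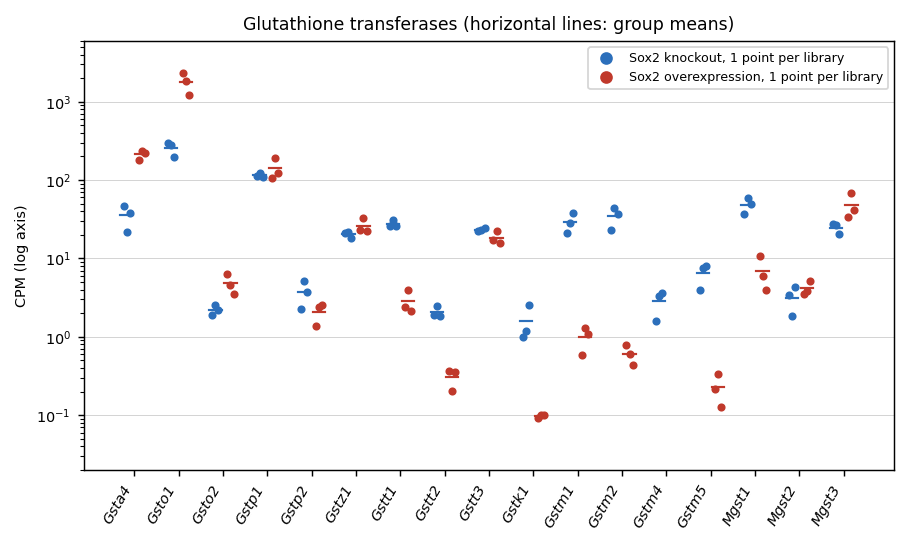
CPM per library (log axis) of cytosolic and microsomal glutathione transferases, 38-gene members and others of the wider list, with replicates 1 to 3 from left to right and horizontal lines at the group means. Gsta4 and Gsto1 are higher with overexpression and Gstm1, Gstm2, Gstm5, Gstt1 and Mgst1 lower. Of the wider list, Gsto2 is higher and Gstt2, Gstk1 and Gstm4 are lower at an adjusted p under 0.05 with TMM. The overexpression libraries had 0 counts of Gstm4, which a log axis cannot show. The rise of Mgst3 turns to -0.19 (log2) under the epithelial scaling, where the all-gene median was -1.16.

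Of catalase and the 3 superoxide dismutases, Cat and Sod1 were higher (Sod1 at -0.54 under the epithelial scaling), Sod3 was lower and Sod2 did not pass the threshold. Cat (chromosome 2, 103453849 to 103485160), the peroxisomal enzyme that breaks down hydrogen peroxide, had 41.0, 44.7 and 38.5 CPM with knockout and 249, 205 and 260 CPM with overexpression. Both groups were tight and far apart, a rise of 5.75-fold (log2 change 2.52, SE 0.16, adjusted p = 8.04e-06). Sod3 (chromosome 5, 52363791 to 52371418), the extracellular dismutase, had 162, 258 and 267 CPM with knockout and 2.56, 4.13 and 3.44 CPM with overexpression. It fell 67.8-fold (log2 change -6.08, SE 0.30, adjusted p = 2.12e-06), with no overlap.

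Sod1 and Sod2 act inside the cell. Sod1, of the cytosol, had 182, 194 and 164 CPM with knockout and 230, 345 and 241 CPM with overexpression. The groups were separate and Sod1 was higher by 0.60 on the log2 scale (adjusted p = 0.0425; -0.54 under the epithelial scaling), a call lost without any 1 knockout library or without overexpression replicate 3. Sod2, of mitochondria, overlapped between groups (log2 change -0.28, adjusted p = 0.216; -1.40 under the epithelial scaling), and 26.7% of its transcript sequence is shared with other genes.

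**Figure D4:**
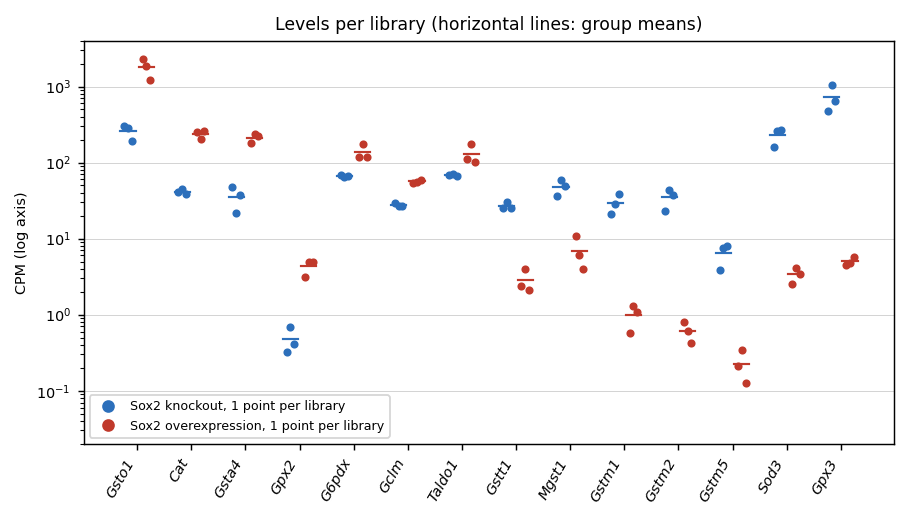
CPM per library (log axis) of the 14 genes whose call held in all alternatives, or in all but the epithelial scaling, with replicates 1 to 3 from left to right and horizontal lines at the group means. Red and blue points do not overlap for any gene. The rises of G6pdx, Gclm and Taldo1 turn to between -0.21 and -0.098 (log2) under the epithelial scaling, where the all-gene median was -1.16.

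The pentose phosphate genes, whose pathway makes NADPH for glutathione and thioredoxin reduction, had 3 of 4 members higher (13.6% of all genes were), and all 4 had separate groups (50.9% of all genes did). G6pdx, the first and rate-setting enzyme, had 67.9, 64.4 and 66.2 CPM with knockout and 119, 173 and 118 CPM with overexpression. With a log2 change of 1.05 (SE 0.18, adjusted p = 0.00250), which was -0.098 under the epithelial scaling, its overexpression libraries all lay above the knockout libraries. Its exons overlap those of Ikbkg on the other strand, and 23.6% of its sequence is shared with Ikbkg or G6pd2. Taldo1 (transaldolase) went from 68.1, 70.9 and 66.2 CPM to 111, 176 and 103 CPM, a log2 change of 0.93 (adjusted p = 0.0107; -0.21 under the epithelial scaling). Tkt (transketolase) went from 145 ± 8.55 to 265 ± 80.9 CPM (± SD, n = 3 per group), a log2 change of 0.88 (adjusted p = 0.0153; -0.26 under the epithelial scaling). Pgd, the second NADPH-making step, had a log2 change of 0.39 that did not pass (adjusted p = 0.149; -0.74 under the epithelial scaling). The summed level of the 4 genes was 393 to 424 CPM with knockout and 588 to 930 CPM with overexpression, highest in overexpression replicate 2.

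Levels of different genes were compared per kilobase of exon, as mean CPM per kb. The length joins the exons of all annotated transcripts of a gene, and for Gpx1 and Gpx2 it spans the whole gene. Places among the 38 genes therefore depend on the annotation. With knockout, Gpx3 had the highest level of the 38 genes at 400 ± 160 CPM per kb (SD, n = 3), followed by Txn1 at 182 ± 9.91, Gsto1 at 129 ± 28.2 and Gpx1 at 117 ± 10.1 CPM per kb, the last 2 of which do not differ beyond their spread. With overexpression, Gsto1 stood first at 884 ± 274 CPM per kb and Txn1 second at 277 ± 29.5. Gsta4, Gpx4, Gpx1 and Prdx1 followed at 168, 156, 155 and 151 CPM per kb and do not differ beyond their spread, and Gpx3 was at 2.78 CPM per kb, in place 29 of 38. Gsta4 moved from place 15 to place 3 and Sod3 from place 8 to place 34. Nqo1, at 0.43 and 0.18 CPM per kb, was among the lowest in both groups.

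**Figure D5:**
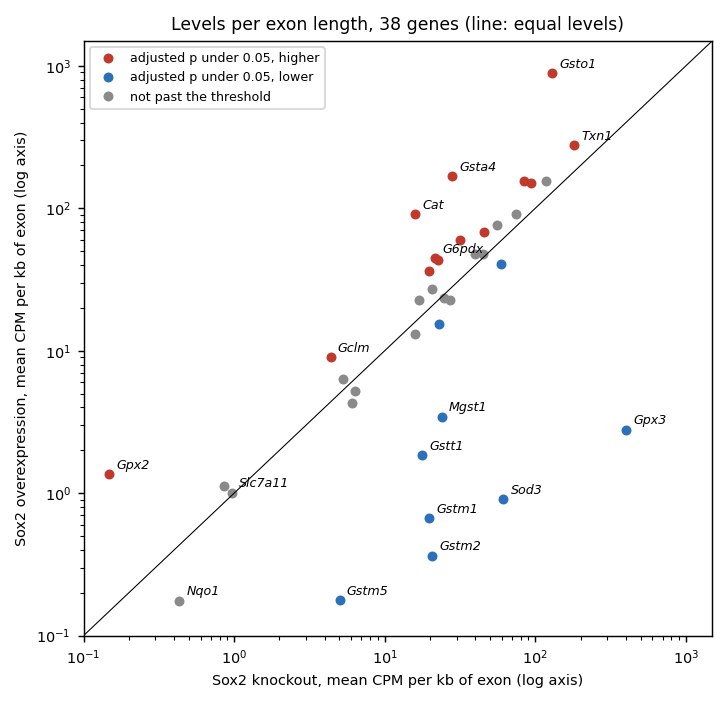
Mean CPM per kb of exon of the 38 genes with knockout (horizontal, log axis) and with overexpression (vertical, log axis), with a line where the groups are equal; colours give the call with TMM scaling. Gsto1, Gsta4, Cat and Gpx2 lie above the line and Gpx3, Sod3, Mgst1, Gstt1, Gstm1, Gstm2 and Gstm5 far below it. Most genes lie near it, among them 9 of the red points, which fall below 0 under the epithelial scaling. All 9 stay above the all-gene median log2 change of -1.16 there.

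The knockout libraries also differed among themselves in the level of the fibroblast markers. Knockout replicate 1 had the lowest summed fibroblast marker level of the knockout libraries. It also had the lowest knockout level of all 9 genes that fell and of 1 of the 13 that rose, Gpx2. Over all tested genes replicate 1 was the lowest for 34.5%, and for 64.3% of those that were lower with overexpression. The part of the cells that made the fibroblast markers in the changes of these genes was not tested. The epithelial genes differed in the opposite direction, with a median log2 change of 1.13. The part of epithelial RNA in the rises of these genes was not tested. The epithelial scaling is no such test, since it shifts every gene by its construction.

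A list of 83 further genes of the NRF2, glutathione, thioredoxin and NADPH systems was read in the same way. Of 73 that could be tested, 18 (24.7%) were higher and 13 (17.8%) lower at an adjusted p under 0.05, against 13.6% and 18.0% of all genes, so the share that fell was that of all genes, with a median log2 change of 0.26. Under the epithelial scaling 2 were higher and 49 lower, where 1.92% and 71.6% of all genes were. Without knockout replicates 2 or 3 the higher count was 11 or 10, where 7.5% or 8.45% of all genes were higher. By role, regulators of NRF2 had 3 of 9 genes higher and 0 lower, further targets 5 higher and 5 lower of 18, glutathione genes 7 higher and 6 lower of 21, thioredoxin and superoxide genes 1 and 1 of 16 (6.25% each way, below the shares of all genes), and NADPH genes 2 and 1 of 9.

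The 4 of these with the smallest p-values among those that rose were Aldh3a1, Chac2, Ephx1 and Abcc4. Aldh3a1, an aldehyde dehydrogenase of squamous and corneal epithelium, rose from 2.17, 1.62 and 1.67 CPM to 24.9, 41.8 and 26.3 CPM, a log2 change of 4.09 (SE 0.28, adjusted p = 1.12e-05). Chac2, which degrades glutathione, rose from 3.12 ± 0.852 to 18.9 ± 4.98 CPM (± SD, n = 3 per group), a log2 change of 2.60 (adjusted p = 0.000195). Ephx1, an epoxide hydrolase, and Abcc4, an exporter, had log2 changes of 1.60 and 1.27 (adjusted p = 0.000745 and 0.000997), which were 0.43 and 0.12 and no longer past the threshold under the epithelial scaling.

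Among those that fell, the 4 smallest p-values belonged to Gpx7, Prdx4, Abcc3 and Ugdh. Gpx7, a peroxidase of the endoplasmic reticulum, had 21.4, 33.5 and 26.2 CPM with knockout and 0.092, 0.14 and 0.15 CPM with overexpression, at most 6 counts in a library, with a log2 change of -7.69 (SE 0.32, adjusted p = 1.56e-06). Prdx4, the peroxiredoxin of the same compartment, had 14.5, 18.8 and 24.9 CPM and then 0.37, 0.44 and 0.28 CPM, a log2 change of -5.75 (SE 0.33, adjusted p = 4.55e-06). In both, every overexpression library lay far below the knockout libraries. Ugdh, which makes the UDP-glucuronate used for glucuronidation and for matrix polysaccharides, and Abcc3, an exporter of conjugates, fell by 2.09 and 1.66 on the log2 scale (adjusted p = 0.000219 and 0.000216).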

How the data were processed

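Raw counts per gene were deposited by the authors, whole numbers in 1 column per library (55481 rows), and columns were matched to samples by their descriptions. Per the submitters' processing notes, kallisto 0.44.0 and mm10 were used, with no role given; annotation and strand setting are not given in the sources used here. The 92 ERCC and 4 construct rows, at most 2.23e-05% of a library's counts, were left out. Symbols came from GENCODE M21 (GRCm38) for 55144 of 55385 gene IDs, and all 38 genes matched; positions and exon lengths are from that annotation.

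Genes were filtered with filterByExpr (minimum count 10, total 15), which kept 18504, normalized with TMM and tested in edgeR 4.0.16 (R 4.3.3) by quasi-likelihood, group as the only term. P-values were Benjamini-Hochberg adjusted over all tested genes (threshold 0.05). The standard error is the log2 fold change divided by the square root of F. A count of 0 allows up to 3 counts, 0.0759 to 0.101 CPM by library, for counting error only. The fit was tested on simulated data. It recovered 25 of 100 simulated 2-fold changes and 73 of 100 4-fold changes, with 7 false calls among 105. The simulation changed 100 genes at each fold out of 18504, whereas 5848 genes were called in the data. Its recovery therefore need not hold for these data. A gene that did not pass the threshold may still have changed. Shared transcript sequence is the share of 31-base words also found in other genes' transcripts.

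The 38 genes, the marker lists and the wider pathway list were chosen with earlier results of these data known. Of the marker lists, 1 is not reported here. The text names the 38 genes, Sox2 and, from the wider list, the 4 smallest p-values past the threshold in each direction; any other gene was chosen after its values were seen. Alternatives were RLE and upper-quartile normalization, the epithelial scaling, no filter beyond 1 count, a fit blocked by replicate number, robust dispersion, DESeq2 1.42.0 and each library left out. No 2 libraries agreed within sampling noise (chi-square per degree of freedom at least 37.7).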

Additional observations from a re-analysis of the deposited data

Results flagged for a closer look

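A construct sequence outside the mouse genes, mCherry, had 8 counts in knockout replicate 3, above the 3 counts that a count of 0 allows. It had 1 count in knockout replicate 2 and 0 in the other 4 libraries, and the ERCC spike-in rows held 0 counts in all.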

How the results depend on the processing

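Of 78 counts over the 13 alternatives, 67 stayed within 1.5 times. The epithelial scaling gave 4 higher and 24 lower of the 38 genes, 2 and 49 of the wider list, and 355 and 13245 of all genes (2.61% of calls higher, against 43.1% with TMM), with every gene shifted by the construction of that scaling. With 1 library left out, the 38 genes gave 7 to 13 higher and 7 to 10 lower, and the wider list 10 to 19 higher. All genes gave 1446 to 2599 higher in those fits, with shares of 7.5% to 13.2% higher and 14.4% to 16.9% lower. The numbers of higher genes were lowest without knockout replicate 3 (7 and 10) for the lists and without replicate 2 (1446; 1610 without replicate 3) for all genes; the cause was not tested beyond the smaller number of libraries. The largest move of a called fold among the 38 genes by leaving out 1 library was 1.36 times.

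The replicate block gave 13 higher and 9 lower of the 38 genes, as without it. It gave 5593 calls in all, with 13.1% of all genes higher and 17.2% lower. Replicate numbers did not pair the libraries: deviations of same-numbered libraries correlated at 0.051, 0.022 and -0.04.

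Of 611 single-gene values, 551 kept direction and side of the threshold, 29 lost the call, 7 gained it and 24 changed sign, 19 of them under the epithelial scaling, where the log2 fold changes were -0.89 for Nfe2l2, -0.74 for Keap1, -0.11 for Gclm, -0.86 for Gss, -1.06 for Gsr, -1.003 for Slc7a11, -0.53 for Txn1, -0.43 for Prdx1, -0.69 for Prdx2, -0.74 for Gpx1, -0.24 for Gpx4, -0.86 for Gstp1, -0.81 for Mgst2, -0.19 for Mgst3, -0.54 for Sod1, -0.098 for G6pdx, -0.74 for Pgd, -0.21 for Taldo1 and -0.26 for Tkt. The other sign changes came with 1 library left out, in genes far from the threshold. Gsr ranged from -0.06 to 0.28 over those fits, and was below 0 without knockout replicate 2 (-0.03) or overexpression replicate 2. Slc7a11 ranged from -0.29 to 0.43, below 0 without knockout replicate 3 or overexpression replicate 1 (-0.12 for the latter), and Txnrd1 from -0.18 to 0.074, above 0 without overexpression replicate 3. Depth limits Nqo1, Gpx2 and Gstm5 most, whose lower group had at most 21 counts in a library.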
